A study of Homo sapiens with 4 samples.

Results

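Expression of 51 genes of G2 and mitosis was examined in LNCaP cells treated with the androgen R1881 with or without the KDM5 inhibitor CPI-455. The genes were taken from a list of mitotic cyclins, kinases, kinesins, kinetochore proteins, condensins and their partners. The list was chosen with earlier results of these data known, and it holds 51 of 60675 annotated genes. All 51 passed the filter on low counts, which kept 17600 genes for testing. LNCaP, an androgen-responsive human prostate cancer line, was established from a metastasis in a lymph node, and all cells here were grown in phenol red-free medium with hormone-depleted serum. Every culture received 1 nM R1881, a synthetic androgen, for 72 h. A group of 2 cultures received vehicle (DMSO) with it, and another group of 2 received 50 µM CPI-455, an inhibitor of the KDM5 family of demethylases that remove methyl groups from lysine 4 of histone H3. The comparison asked how expression with androgen differed with the inhibitor, and it contained no culture without androgen. Both groups are of 1 cell line, and the sources differ on the final DMSO concentration.

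Cells enter mitosis when cyclin B and CDK1 become active, helped by the CDC25 phosphatases and polo-like and Aurora kinases. Sister chromatids are then attached to the spindle through kinetochores, and the spindle checkpoint holds the anaphase-promoting complex (APC/C) back until attachment is complete. CDC20 activates the APC/C, which marks securin and cyclin B for destruction so that separase can release the chromatids. Most of these genes are transcribed together late in the cell cycle, through the MuvB complex with MYBL2 or FOXM1 at a promoter element called CHR and through NF-Y at CCAAT boxes, and the DREAM complex keeps them low in resting cells. In cultures of prostate cancer cells their RNAs are therefore widely used as markers of proliferation.

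The vehicle libraries held 19623553 and 20690819 counted fragments and the CPI-455 libraries 9522920 and 5401588, so that 3 counts corresponded to 0.145 to 0.153 CPM (counts scaled to the size of the library) with vehicle and to 0.315 to 0.555 CPM with CPI-455. The least counted member had 166 fragments in a library, far above this floor, which covers counting error only. Across genes, log2 CPM of the replicates had a Pearson correlation of 0.993 with vehicle and 0.946 with CPI-455. Of 10 luminal prostate markers 6 were lower with CPI-455 by the calling rule used for the members, KLK3 (prostate-specific antigen) among them, and 0 were higher. They summed to 894 to 973 CPM with vehicle and 388 to 441 with CPI-455. KLK2, KRT18, TMPRSS2 and EPCAM were not called, and KLK2 went the other way, from 84.2 and 64.4 CPM to 108 and 111. EPCAM, an epithelial surface protein, was at only 3.15 to 6.74 CPM in the 4 libraries. Basal and immune markers were at or near 0, with KRT5 at 0 in all libraries, whereas the 4 stromal and endothelial markers summed to 4.08 to 5.21 CPM with vehicle and 10.2 to 10.7 with CPI-455. Most of this sum was COL1A1 (4.97 and 4.03 CPM with vehicle, 10.1 and 7.73 with CPI-455), which was called higher at just over 2-fold. COL1A2 was at 2.97 CPM in CPI-455 replicate 2 and at or near 0 elsewhere. Of 3 markers of other prostate cancer lines, VIM was called higher (651 and 737 CPM with vehicle, 1337 and 1520.1 with CPI-455), CAV1 was called lower and CD44 was not called. High VIM with little EPCAM is not the usual profile of LNCaP cells, and the cells are named here as labelled. The part of depth and of these markers in the results was not tested.

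The promoters of the members were read first for these elements. RefSeq promoters (GRCh38.p14, from 250 bases before to 50 after the gene start) were matched by symbol for 44 of the 51 members. Promoters of the main mitotic cyclins and kinases and of the APC/C activator are printed as examples that did and did not rise with CPI-455. Each sequence holds the 150 bases before the RefSeq start, read along the gene, with the CHR letters (TTTGAA or TTCGAA) and CCAAT in capitals on either strand.
CDK1 (chr10:60778181-60778330, plus strand): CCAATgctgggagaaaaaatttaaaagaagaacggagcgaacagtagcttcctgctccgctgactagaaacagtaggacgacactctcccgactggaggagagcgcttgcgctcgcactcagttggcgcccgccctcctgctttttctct
CCNB1 (chr5:69167000-69167149, plus strand): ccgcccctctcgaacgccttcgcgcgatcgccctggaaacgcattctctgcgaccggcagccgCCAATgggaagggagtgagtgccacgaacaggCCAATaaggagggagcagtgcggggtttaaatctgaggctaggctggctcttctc
CCNB2 (chr15:59104996-59105145, plus strand): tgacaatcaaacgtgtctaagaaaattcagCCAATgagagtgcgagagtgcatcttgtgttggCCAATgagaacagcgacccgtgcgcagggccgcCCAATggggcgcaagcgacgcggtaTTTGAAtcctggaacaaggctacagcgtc
PLK1 (chr16:23678739-23678888, plus strand): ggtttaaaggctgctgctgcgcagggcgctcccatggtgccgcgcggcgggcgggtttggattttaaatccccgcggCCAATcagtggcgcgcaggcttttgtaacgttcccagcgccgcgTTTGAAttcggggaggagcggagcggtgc
CDC20 (chr1:43358831-43358980, plus strand): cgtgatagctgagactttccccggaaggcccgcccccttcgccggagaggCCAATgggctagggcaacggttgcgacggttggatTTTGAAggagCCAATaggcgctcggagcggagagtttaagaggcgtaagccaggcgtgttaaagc

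In CCNB2 the CHR letters began 29 bases before the start and CCAAT boxes at 54, 87 and 120 bases before it, and PLK1 carried the same element at 29 bases with a CCAAT box at 73. CDC20 had the CHR letters at 65 bases between CCAAT boxes at 55 and 100. CCNB1 held CCAAT boxes at 55 and 87 bases before the start and neither TTTGAA nor TTCGAA in the window. Other forms of the CHR element were not searched, so CCNB1 is not shown to lack it. In CDK1 the CHR letters lay outside the shown stretch, at 161 bases. CHR letters on either strand were found in 33 of the 44 member promoters (75%), against 16.6% of 27303 promoters of all genes and 10.9% of the 12070 belonging to tested genes. CCAAT, also searched on both strands, occurred in 32 of them (72.7%), against 35.7% and 36.3%. The 2 motifs were found together in 25 (56.8%), against 6.58% of all promoters, and were counted separately also where they shared a base. These are matches of letters only, and the RefSeq start lay within 100 bases of the first base of the deposited gene for 27 of the 44 genes.

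**Figure D1:**
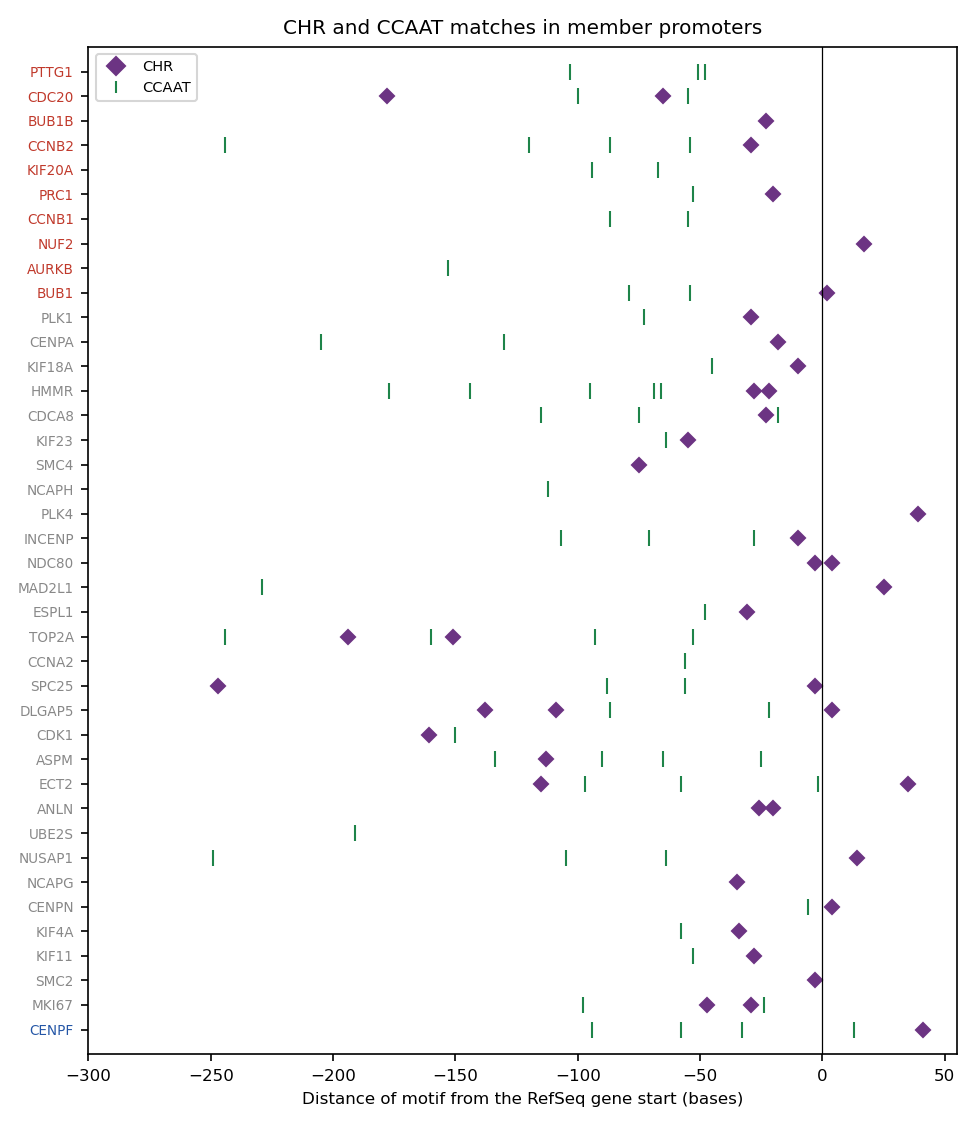
Position of CHR (diamonds) and CCAAT (bars) letters relative to the RefSeq gene start in bases, for the 40 members with a match, ordered from the highest to the lowest log2 fold change. Names are red for members called higher, blue for called lower and grey for not called. Of the 44 members with a promoter, 33 held CHR letters: 6 of the 13 called higher and 27 of the 31 others.

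With CPI-455, 14 of the 51 members were higher and 2 were lower at an FDR below 0.05 and at least 2-fold (edgeR's quasi-likelihood test over all 17600 genes). Of all tested genes 21.0% were called higher and 21.3% lower, so the members, with 27.5% higher and 3.92% lower, stood near the background in the first direction and below it in the other. When the libraries were scaled by their totals alone the split was 10 higher and 4 lower. Without the filter on low counts it was 11 and 4. These settings shifted the median log2 fold change of all tested genes by −0.19 and −0.15. Their shares of all tested genes are not given here, so these splits cannot be set against 21.0% and 21.3%. The 14 were UBE2C, PTTG1, CDC20, BUB1B, KIF2C, CCNB2, KIF20A, PRC1, CCNB1, NUF2, AURKB, BUB1, CDC25C and CENPE, and FOXM1 and CENPF were the 2 that fell. At an FDR below 0.05 regardless of size, 26 members were higher and 9 lower, against 29.8% and 32.8% of all tested genes in those directions and 62.6% in either. The remaining 16 members did not pass. The log2 fold changes, given throughout as CPI-455 over vehicle, had a median of 0.32 over the 51 members with a middle range of −0.12 to 1.10. Over all tested genes the median was −0.04 and the middle range −0.96 to 0.94. For 35 of the members (68.6%) the change was under 2-fold in size, compared with 52.1% of all tested genes. These are RNA levels of whole cultures, in which a different share of cells in G2 and mitosis and a different amount of RNA in each such cell cannot be told apart.

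**Figure D2:**
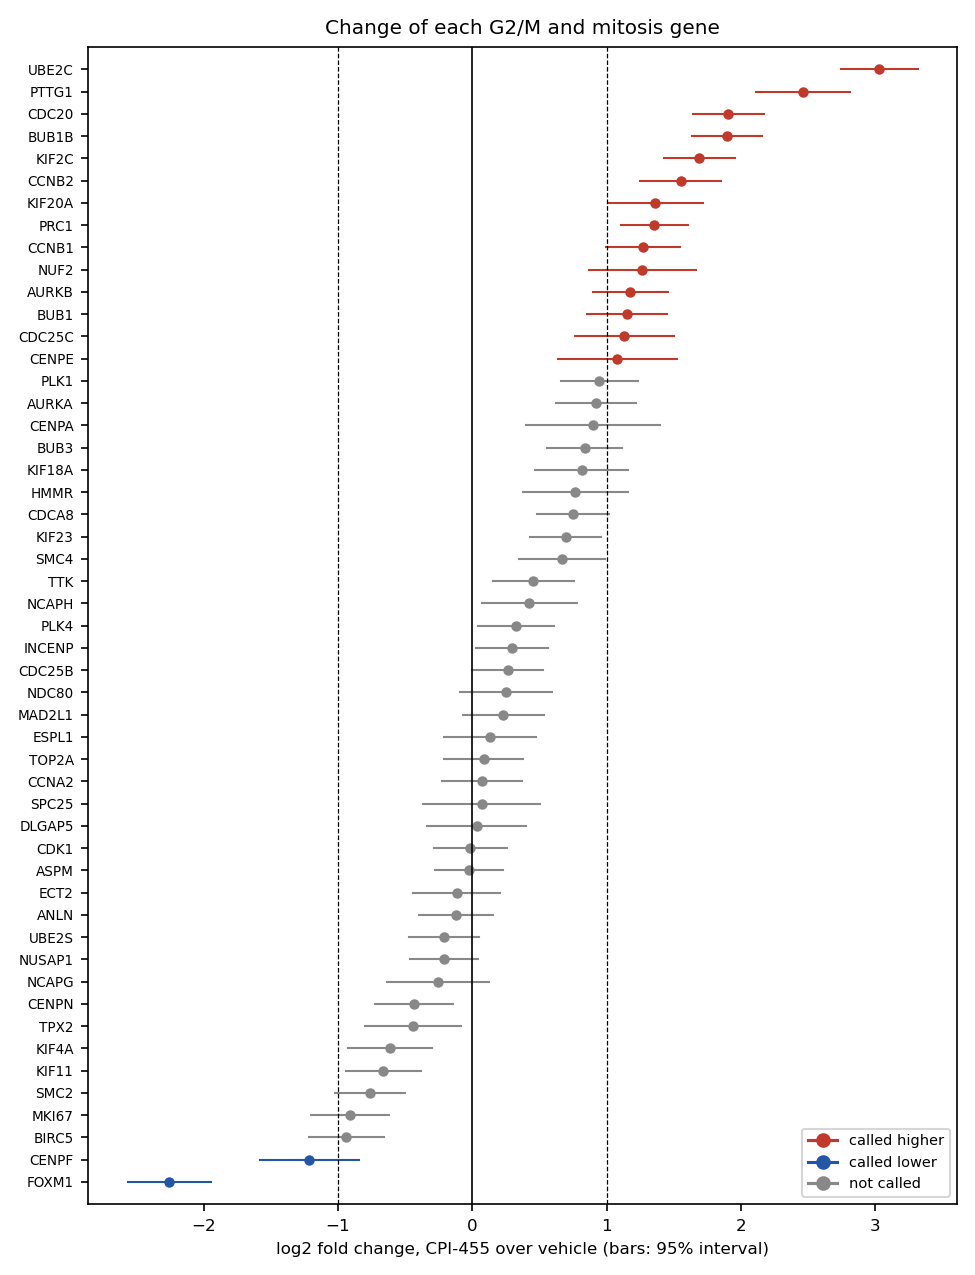
Log2 fold change of the 51 members, CPI-455 over vehicle, with 95% intervals from edgeR's quasi-likelihood fit (2 libraries in each group). Dashed lines mark a 2-fold change, red and blue points were called higher and lower, and the points run from UBE2C at 3.03 to FOXM1 at −2.25.

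Together the members took 0.707% and 0.782% of the counted fragments with vehicle and 0.756% and 0.859% with CPI-455, shares that overlapped between the groups. As normalized CPM they summed to 6569 and 7411 with vehicle and to 8095 and 9196 with CPI-455, which did not overlap. Replicates differed less than the called changes. In 45 of the 51 members both CPI-455 libraries lay on the same side of the vehicle mean, and the median difference between these libraries was 0.20 on the log2 scale with a largest of 0.56. The CPI-455 replicate 2 library gave the higher value for 38 members. Groups did not overlap for 42 members, 30 of them higher with CPI-455 and 12 lower, whereas among all tested genes 39.1% were higher without overlap and 42.8% lower (81.9% in either direction). In the other 9 members the groups overlapped.

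**Figure D3:**
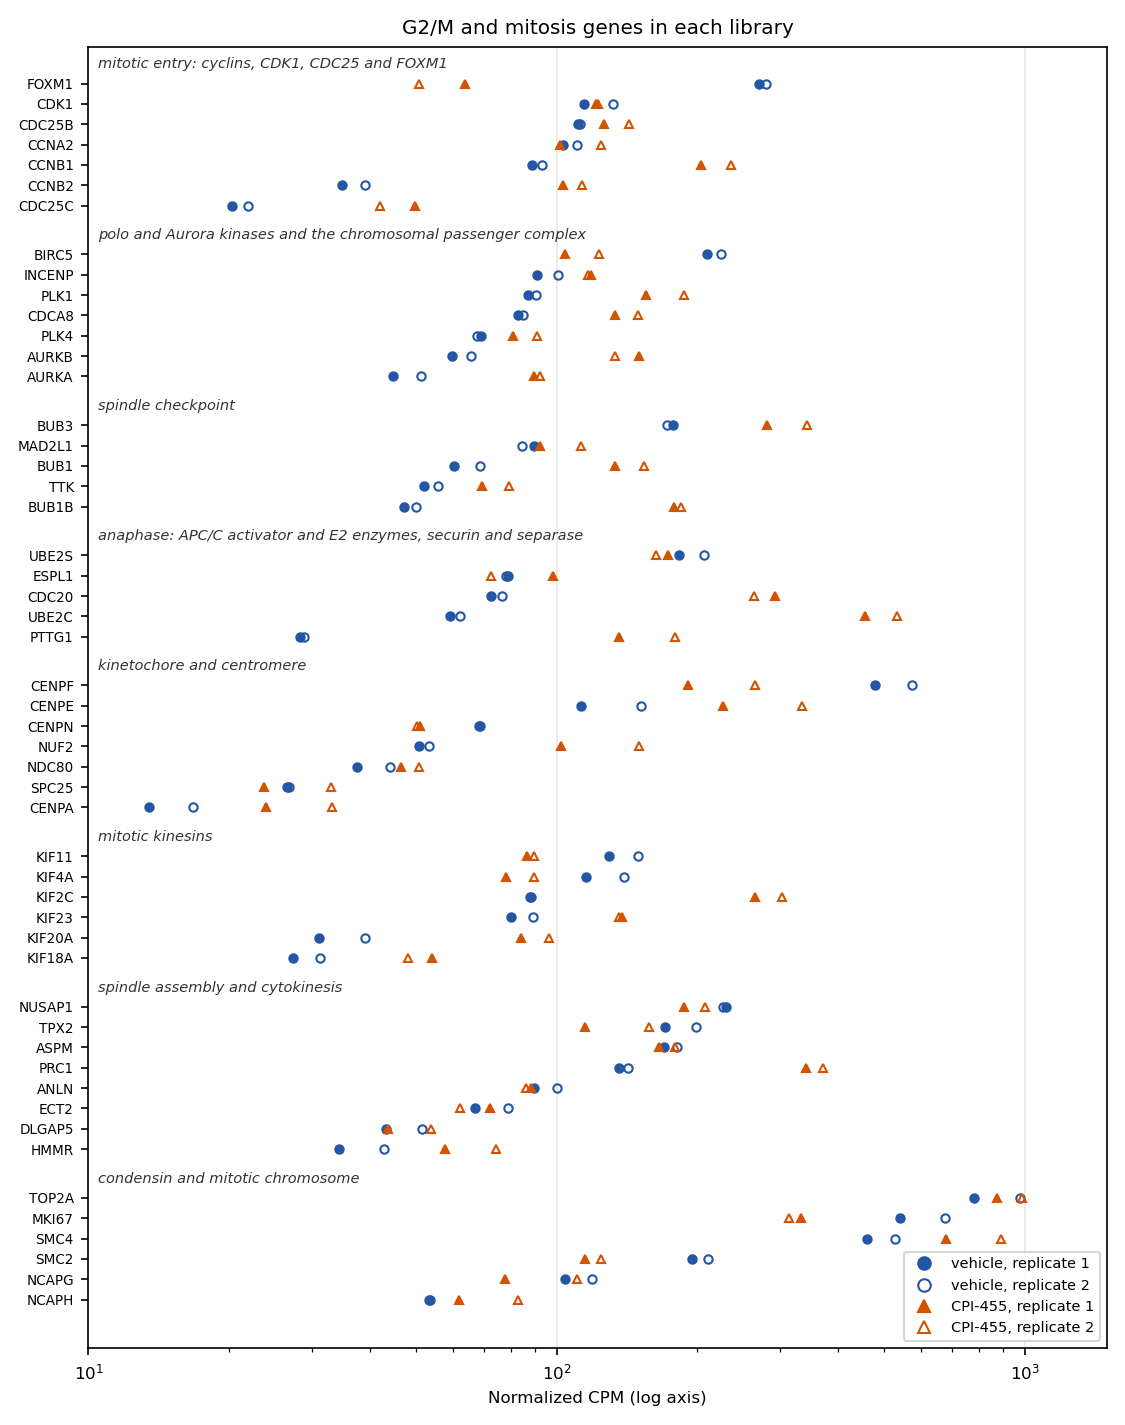
Normalized CPM of each member in the 4 libraries on a log axis, grouped by role, with circles for vehicle and triangles for CPI-455. In 30 members both triangles lie to the right of both circles, as for UBE2C, and in 12 to the left, as for FOXM1.

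Of the 7 genes of mitotic entry 3 were called higher (CCNB1, CCNB2 and CDC25C) and 1 lower, FOXM1, against 21.0% and 21.3% of all tested genes. The same shares apply to the groups below, which are too small for a count to describe a role. CCNB1 (ENSG00000134057, GRCh38 chr5:69167010-69178245, plus strand), the main cyclin that activates CDK1 at mitosis, was at 88.7 and 93.1 CPM with vehicle and at 204 and 236 CPM with CPI-455. CCNB2, the second B-type cyclin, was at 34.8 and 38.9 CPM with vehicle and 103 and 113 with CPI-455. Both CPI-455 libraries exceeded both vehicle libraries for each cyclin, and the log2 fold changes were 1.27 ± 0.12 (SE) for CCNB1 and 1.55 ± 0.13 for CCNB2 (FDR 1.97e-05 and 1.07e-05). Their partner kinase CDK1 did not pass. It was at 114 and 132 CPM with vehicle and 121 and 123 with CPI-455, so that the CPI-455 values lay between those of vehicle, and the 95% interval of the log2 fold change was −0.29 to 0.26. CCNA2, the cyclin of S phase and G2, was at 103 and 110 CPM against 102 and 124, with overlapping groups and an interval of −0.22 to 0.37.

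FOXM1 (ENSG00000111206, chr12:2857681-2877155, minus strand), the forkhead factor that drives transcription of many genes of this list, gave the largest fall. It was at 270 and 280 CPM with vehicle and at 63.6 and 50.8 CPM with CPI-455. The groups were far apart, with a 4.77-fold lower level (log2 fold change −2.25 ± 0.14 SE, FDR 1.81e-06). Per kilobase of exon FOXM1 ranked 6 of the 51 members with vehicle, at 56.1 CPM, and 49 with CPI-455, at 11.7 CPM. Its exons share 15.9% of their bases with other genes, and fragments there were not counted. Of the phosphatases that activate CDK1, CDC25C rose by 1.13 on the log2 scale (FDR 0.000269), although without CPI-455 replicate 1 its change was 0.99 and under the 2-fold limit. Its call was also lost with library totals alone, at 0.94, and without the filter on low counts. CDC25B was at 111 and 112 CPM with vehicle and 126 and 143 with CPI-455, and its log2 fold change of 0.26 did not pass (FDR 0.0756).

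Among the polo-like and Aurora kinases and the chromosomal passenger complex, 1 of 7 genes was called higher and 0 lower. By FDR alone 5 were higher and 1 lower, against 29.8% and 32.8% of all tested genes. AURKB, the kinase of the passenger complex that corrects faulty attachments, was at 59.8 and 65.8 CPM with vehicle and 150 and 134 with CPI-455, and rose by 1.18 ± 0.12 (SE) on the log2 scale (FDR 3.76e-05). Its call was lost when the libraries were scaled by their totals alone. AURKA, the spindle pole kinase, went from 44.7 and 51.3 CPM to 89.5 and 92.2. PLK1, which promotes entry, centrosome maturation and cytokinesis, went from 87.1 and 90.5 CPM to 155 and 188. Neither of these overlapped between groups, and both passed the FDR but stood just under 2-fold, with log2 fold changes of 0.92 for AURKA and 0.95 for PLK1. PLK4, which licenses centriole duplication, was at 69.1 and 67.5 CPM with vehicle and 80.7 and 90.8 with CPI-455, a log2 fold change of 0.32 (FDR 0.0467).

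The other subunits of the passenger complex went in different directions. BIRC5 (survivin) was at 210 and 225 CPM with vehicle and at 104 and 124 with CPI-455, without overlap, and was lower by FDR at −0.94 ± 0.12 (SE; FDR 0.000159), just short of 2-fold. CDCA8 (borealin) was higher by FDR, with a log2 fold change of 0.75 (FDR 0.000453). INCENP, the scaffold, changed by 0.30 and did not pass (FDR 0.0518). Within this complex of 4 proteins AURKB alone was called.

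All 5 spindle checkpoint genes had higher values with CPI-455 in both libraries than in either vehicle library, and 2 of them were called. Of all tested genes 39.1% were higher without overlap and 21.0% were called higher. BUB1B (BUBR1, a part of the complex that binds CDC20; chr15:40161023-40221136, plus strand) was at 47.2 and 50.1 CPM with vehicle and 178 and 184 with CPI-455. BUB1, its kinase relative at the kinetochore, was at 60.5 and 68.5 CPM with vehicle and 133 and 154 with CPI-455. BUB1B rose by 1.90 ± 0.12 (SE) and BUB1 by 1.15 ± 0.13 on the log2 scale (FDR 1.94e-06 and 5.94e-05). The call of BUB1 was lost with library totals alone, at 0.96, and without the filter on low counts. BUB3, which carries both proteins to the kinetochore, was at 178 and 172 CPM against 282 and 343, higher by FDR at 0.84. TTK (MPS1), the kinase that starts the signal, was at 52.2 and 55.8 CPM against 69.4 and 79.1, higher by FDR at 0.46. MAD2L1, the inhibitor that is loaded on CDC20, was at 89.5 and 84.5 CPM against 92.2 and 113, and with a log2 fold change of 0.23 it did not pass (FDR 0.16). Of BUB1B exon bases 10.2% are shared with a read-through gene, and those fragments were left out.

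The largest rises of the whole list were among the 5 genes of anaphase, of which 3 were called higher, against 21.0% of all tested genes. UBE2C (UbcH10, ENSG00000175063, chr20:45812576-45816957, plus strand), the E2 enzyme that starts ubiquitin chains for the APC/C, was at 59.1 and 62.1 CPM with vehicle and at 456 and 534 with CPI-455. It rose 8.15-fold (log2 fold change 3.03 ± 0.13 SE, FDR 5.83e-07) and moved from rank 9 to rank 1 of the 51 members in CPM per kilobase, from 47.1 to 385. Among all tested genes this change stood at percentile 95.1, so larger rises were not rare in these libraries. PTTG1 (securin, ENSG00000164611, chr5:160421822-160428744, plus strand), the inhibitor of separase, was at 28.3 and 28.8 CPM with vehicle and 136 and 179 with CPI-455, 5.50-fold higher (FDR 2.12e-06). PTTG1 has near-identical copies elsewhere in the genome, and fragments that matched several places were not counted, so its level is less certain. CDC20 (ENSG00000117399, chr1:43358955-43363203, plus strand), the APC/C activator, was at 72.4 and 76.6 CPM with vehicle and 293 and 265 with CPI-455, 3.75-fold higher (FDR 1.92e-06). For UBE2C, PTTG1 and CDC20 the lowest CPI-455 library was far above the highest vehicle library.

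The partners of these 3 genes were not called. UBE2S, the E2 enzyme that extends the chains begun by UBE2C, was at 182 and 207 CPM with vehicle and 173 and 163 with CPI-455, a log2 fold change of −0.21 with an interval of −0.47 to 0.05. ESPL1 (separase), the protease that securin holds, was at 78.7 and 77.8 CPM with vehicle and at 98.1 and 72.4 with CPI-455, with overlapping groups and an interval of −0.21 to 0.48.

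Of 7 kinetochore and centromere genes 2 were called higher and 1 lower, against 21.0% and 21.3% of all tested genes. CENPF (ENSG00000117724, chr1:214603195-214664588, plus strand), a large protein of the outer kinetochore that accumulates in G2, was at 479 and 575 CPM with vehicle and 191 and 265 with CPI-455. These groups did not overlap, and it fell by 1.21 ± 0.16 (SE) on the log2 scale (FDR 0.000171). Without CPI-455 replicate 1 its change was −0.99 and the call was lost. NUF2, of the NDC80 complex that binds microtubules, was at 50.9 and 53.3 CPM with vehicle and 102 and 150 with CPI-455, and rose by 1.27 ± 0.18 (SE; FDR 0.000209). NDC80, its direct partner, was at 37.5 and 44.1 CPM against 46.4 and 50.8, which did not overlap but did not pass (log2 fold change 0.25, FDR 0.182). SPC25, of the same complex, had a log2 fold change of 0.07 with an interval of −0.36 to 0.50. CENPE, the kinetochore kinesin, rose by 1.08 ± 0.20 (FDR 0.0011). Calls of NUF2 and CENPE rested on single libraries: without CPI-455 replicate 2 their changes were 0.97 and 0.78, and CENPE was at 0.91 without vehicle replicate 1. The call of CENPE was also lost with library totals alone, at 0.89, and without the filter on low counts. CENPA, the histone H3 variant that marks the centromere, was at 13.5 and 16.8 CPM against 24.0 and 33.1, higher by FDR at 0.90 (FDR 0.00603) and short of 2-fold. CENPN, which reads the CENPA nucleosome, was lower by FDR at −0.43. After removal of a trend in length and GC content CENPN was at −0.22 and no longer passed (FDR 0.134).

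Each of the 6 mitotic kinesins passed the FDR, 4 higher and 2 lower, and 2 of the higher ones were called. Of all tested genes 62.6% passed the FDR and 21.0% were called higher. KIF2C (MCAK, chr1:44739818-44767767, plus strand), which takes apart microtubules at faulty attachments, was at 88.2 and 87.9 CPM with vehicle and 266 and 303 with CPI-455, and rose by 1.69 ± 0.12 (SE; FDR 3.47e-06). KIF20A, a kinesin of the central spindle, was at 31.0 and 39.0 CPM against 83.8 and 96.6, and rose by 1.36 ± 0.16 (FDR 6.37e-05). KIF18A and KIF23, which limit chromosome movement and bundle the midzone, were higher by FDR at 0.81 and 0.70. KIF11 (Eg5), the motor that pushes the spindle poles apart, was at 129 and 149 CPM with vehicle and 86.6 and 89.6 with CPI-455, lower by FDR at −0.66. KIF4A, a motor of chromosome arms and the midzone with a near-identical copy that can take its fragments out of the count, was lower by FDR at −0.61. All 6 kinesins had groups without overlap, as had 81.9% of all tested genes. After removal of a trend in length and GC content 4 kinesins were called higher, against 20.8% of all tested genes. KIF11 (−0.16, FDR 0.23) and KIF4A (−0.28, FDR 0.0618) then no longer passed.

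Spindle assembly and cytokinesis genes mostly did not pass, with 1 of 8 called, against 42.4% of all tested genes called in either direction. PRC1, which bundles antiparallel microtubules in the midzone, was at 136 and 142 CPM with vehicle and 341 and 372 with CPI-455, and rose by 1.35 ± 0.11 (SE; FDR 8.36e-06). TPX2, the activator of AURKA on the spindle, was at 171 and 199 CPM against 115 and 158, lower by FDR at −0.44 (FDR 0.0343). With the length and GC trend removed TPX2 was at −0.20 and no longer passed (FDR 0.206). HMMR, a spindle and hyaluronan-binding protein, was higher by FDR at 0.77. The other 5, NUSAP1, ANLN, ECT2, ASPM and DLGAP5, had log2 fold changes of −0.21 to 0.03 and did not pass. NUSAP1 had the narrowest interval among them, −0.46 to 0.04, and ASPM, a spindle pole protein, had one of −0.28 to 0.23.

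In the group of condensin and mitotic chromosome genes 0 of 6 were called, against 42.4% of all tested genes. By FDR alone 2 were higher and 2 lower, against 29.8% and 32.8%. TOP2A, the topoisomerase that separates sister DNA strands and the member with the highest level per kilobase with vehicle (136 CPM), was at 780 and 975 CPM with vehicle and 875 and 987 with CPI-455. These values overlapped and the interval of the log2 fold change was −0.21 to 0.38. MKI67 (Ki-67, the coat protein of mitotic chromosomes used to grade proliferation) was at 542 and 675 CPM with vehicle and 332 and 314 with CPI-455, lower by FDR at −0.91 ± 0.13 (SE; FDR 0.000221) and short of 2-fold. The 2 condensin ATPases went apart. SMC4 was at 460 and 527 CPM against 681 and 891, higher by FDR at 0.67. SMC2, its obligate partner, was at 194 and 210 CPM against 115 and 125, lower by FDR at −0.76 (FDR 0.000364). With the length and GC trend removed SMC2 was at −0.19 and no longer passed (FDR 0.115), and SMC4 was at 1.24. Of SMC4 exon bases 25.6% are shared with other genes and were not counted. NCAPH and NCAPG, regulatory subunits of condensin I, had changes of 0.43 (FDR 0.0401) and −0.26 (not passing).

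Members that are much used as proliferation markers gave different readings. FOXM1 was called lower, CCNB1, AURKB, CDC20 and UBE2C were called higher, and of the uncalled ones MKI67 and BIRC5 were lower by FDR alone while TOP2A, CDK1 and CCNA2 did not pass it. Per kilobase, the order of the members also changed: TOP2A, NUSAP1, UBE2S, SMC4 and BIRC5 led with vehicle at 136, 79.4, 69.8, 58.4 and 57.0 CPM. With CPI-455 the highest were UBE2C at 385, TOP2A at 145, CDC20 at 137, SMC4 at 93.0 and CCNB1 at 85.9 CPM. TOP2A and CDC20 are neighbours in this order that did not differ beyond the spread of the TOP2A replicates. The lowest 3 per kilobase with CPI-455 were ESPL1, KIF18A and FOXM1, from 9.59 to 11.7 CPM.

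Calls and CHR letters were then set side by side. Of the 13 called higher with a promoter entry, 6 held the letters, and of the 31 others 27 did. The median log2 fold change was 0.23 over the 33 members with the letters and 1.13 over the 11 without, which included CCNB1, KIF2C, PTTG1 and AURKB. Members with CCAAT had a median of 0.26 (n = 32) and those without 0.50 (n = 12). These medians are a description with no test. Other forms of the CHR element were not searched, so members without the letters are not shown to lack it.

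The changes were also set against transcript length. Across the 51 members, log2 fold change and log2 exon length had a Pearson correlation of −0.45 and a Spearman correlation of −0.37, and across all tested genes −0.28 and −0.25. All points share the same 4 libraries, and the values are descriptive. The 17 shortest members, with 1286 to 3568 bases of exon, had a median of 0.92 and 8 calls higher. The 17 longest, with 4899 to 12807 bases, had a median of 0.08, 3 calls higher and both calls lower. Tested genes of the same lengths had medians of 0.14 and −0.35. Their share of calls was not counted, so the calls among the shortest and longest members have no background of matched length. In UBE2C, PTTG1 and CDC20 the exons summed to 1286, 2013 and 2038 bases, and in CENPF and MKI67 to 11690 and 12807. When the dependence of each library on exon length and GC content was fitted as a smooth curve and taken out, 19 members were called higher and 1 lower, against 20.8% and 18.0% of all tested genes, and the median rose to 0.66 against 0.04 over all tested genes. Of the 14 calls higher 13 were kept, with AURKB (0.90) lost, and AURKA, BUB3, HMMR, KIF18A, KIF23 and SMC4 were added. UBE2C was then at 2.40 and FOXM1 at −2.11, and both were still called, but CENPF was at −0.71 and lost its call. By FDR alone 35 members were then higher and 5 lower, against 32.0% and 29.4% of all tested genes. Of the 9 members lower by FDR as counted, FOXM1, BIRC5, CENPF and MKI67 still passed, while CENPN, KIF11, KIF4A, TPX2 and SMC2 did not. CDK1 (0.43, FDR 0.00712), ASPM (0.55, FDR 0.00059) and TOP2A (0.65, FDR 0.00033), which had not passed as counted, were among 9 members that were higher by FDR in this setting.

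**Figure D4:**
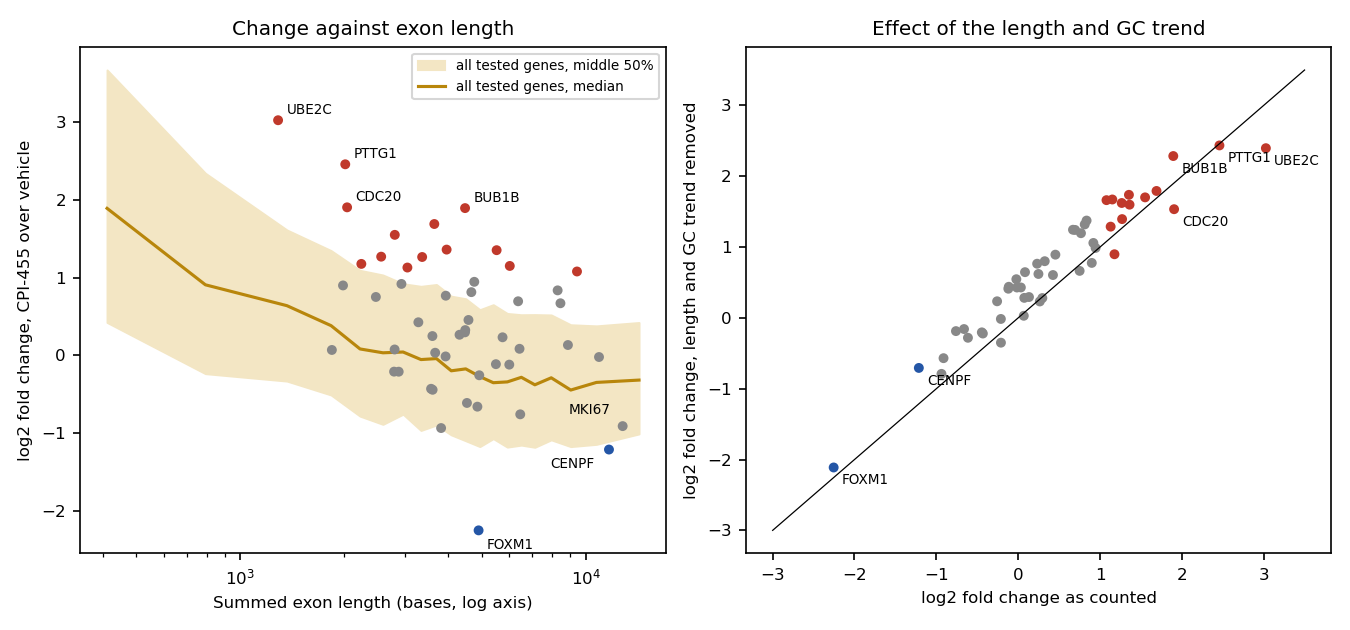
Left: log2 fold change of the members (CPI-455 over vehicle) against summed exon length in bases on a log axis, with the median and middle 50% of all tested genes as line and band. Right: the same log2 fold changes against those with the length and GC trend removed, with the line of equality; red and blue points were called higher and lower in the first analysis. Of the 51 members 41 lie above the line, and UBE2C, CDC20 and AURKB are among those below it.

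Other genes of the same pathways were read from lists that were also chosen with earlier results of these data known. The lists hold 129 genes that are not members, of which 128 were tested. Of these, 16 were called higher (12.5%) and 29 lower (22.7%), against 21.0% and 21.3% of all tested genes. Among 16 core subunits of the APC/C and its regulators, 2 were called higher and 0 lower: the cullin subunit ANAPC2 (log2 fold change 1.23) and the inhibitor FBXO5 (1.06). By FDR alone 8 of the 16 were higher, against 29.8% of all tested genes. With the length and GC trend removed 6 were called higher, against 20.8% of all tested genes. Of 32 other kinetochore and checkpoint genes 5 were called higher (15.6%) and 3 lower (9.38%). They were led by CENPT (2.06), CENPW (1.68) and CENPC (1.49) of the inner kinetochore and by NSL1 (−1.46), ZW10 (−1.30) and MIS12 (−1.03). With the trend removed CENPW (0.92) and MIS12 (−0.78) lost their calls. Other spindle, kinesin and cytokinesis genes gave 5 of 30 in each direction (16.7%), against 21.0% of all tested genes higher and 21.3% lower. The largest rises among them were those of CKS2, a small subunit of cyclin-dependent kinases, from 44.5 and 48.5 CPM to 466 and 563 (3.47), of CDCA3 (2.34) and of SPAG5 (1.71). CKS2 has 613 bases of exon, and with the trend removed it was at 2.38, below CDCA3 at 2.54. HASPIN, the kinase that places the passenger complex at centromeres, was the lowest, from 62.8 and 61.4 CPM to 19.6 and 12.7 (−1.91), followed by CKAP2L (−1.73) and CKAP2 (−1.34, and −0.86 without a call once the trend was removed).

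Of 13 genes of the cohesin ring and its regulators 8 (61.5%) were called lower and 0 higher, against 21.3% of all tested genes lower, and their median log2 fold change was −1.20. With the length and GC trend removed 2 of the 13 were called lower, a share near the 18.0% of all tested genes in that setting, and the median was −0.67. WAPL, which releases cohesin from chromosomes in prophase, was at 187 and 210 CPM with vehicle and 43.9 and 30.7 with CPI-455 (−2.39), followed by ESCO2 (−1.54) and STAG1 (−1.50). Among 4 further condensin subunits 1, NCAPG2, was called lower (−1.33), against 21.3% of all tested genes. ESCO2 (−0.97), STAG1 (−0.90) and NCAPG2 (−0.80) lost their calls with the trend removed. Of the transcriptional regulators of the late cell cycle, 10 of 21 DREAM, MuvB, NF-Y and E2F genes were called lower (47.6%) and 2 higher (9.52%). The shares of all tested genes were 21.3% and 21.0%. Their median was −0.97, and with the trend removed 8 were called lower and 1 higher, against 18.0% and 20.8% of all tested genes. E2F7, a repressor of the cell cycle programme, was at 95.7 and 102 CPM with vehicle and 9.67 and 7.93 with CPI-455, a log2 fold change of −3.47 (FDR 7.52e-07). NFYA, a subunit of the CCAAT-binding factor, went from 79.7 and 72.1 CPM to 18.7 and 19.2, and RB1 had a log2 fold change of −1.85, whereas E2F5 (2.46) and LIN37 (1.15) were higher, the latter at 0.93 and uncalled with the trend removed.

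The genes of the G2 checkpoint gave 2 of 12 tested in each direction (16.7%), against 21.0% of all tested genes higher and 21.3% lower. GADD45A, induced by DNA damage, was higher (1.70), as was the kinase CHEK2 (1.38). CDKN1A (p21), the inhibitor of cyclin-dependent kinases, was at 124 and 130 CPM with vehicle and 38.3 and 31.3 with CPI-455 (−1.85, FDR 5.56e-06), and CDC25A was lower (−1.56). All these lists were fitted in the same table as the members, and no test of a list as a whole was made.

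**Figure D5:**
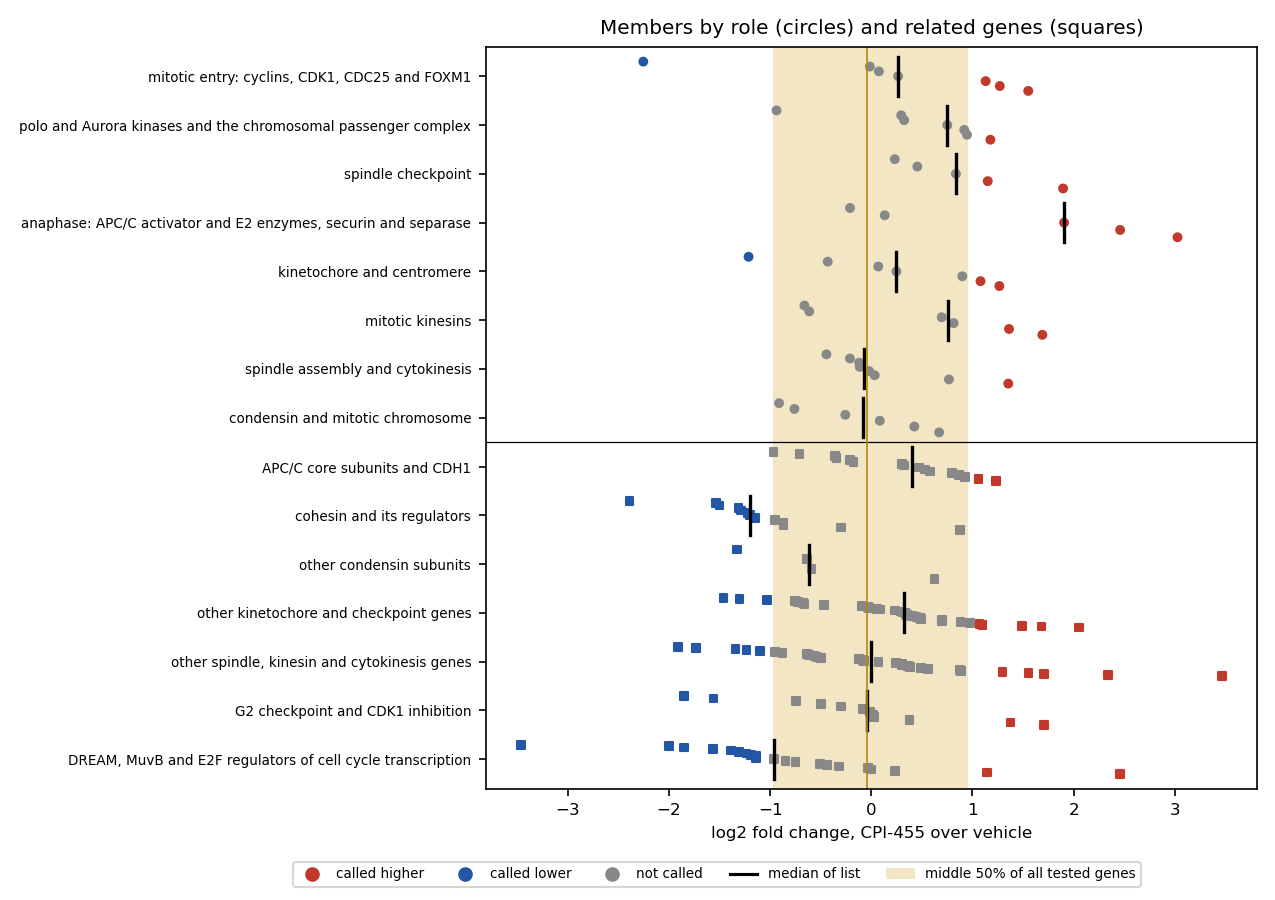
Log2 fold change of each gene (CPI-455 over vehicle), with the members by role as circles and the related genes as squares. Black bars are list medians, the band is the middle 50% of all tested genes and the line in it their median. The cohesin (median −1.20) and DREAM, MuvB and E2F (−0.97) lists lie furthest to the left, and the anaphase members (1.91) furthest to the right.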

How the data were processed

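RNA was sequenced from 2 cultures with vehicle and 2 with CPI-455, grouped by the sample labels. TrimGalore was used by the authors for trimming and STAR for alignment on GRCh38, and they deposited raw fragment counts per gene from featureCounts (v1.5.0-p1 per the file headers, Ensembl 83 exons). The counting used no strand, and fragments with several matches or genes were left out. The versions of TrimGalore and STAR are not given in the sources used here. Depth was 5401588 to 20690819 counts. The p-values weigh each change against variation between these cultures, and the estimate for each gene is drawn partly from all tested genes.

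The counts were fitted in edgeR 4.0.16 (R 4.3.3; limma 3.58.1) with TMM normalization (factors of 1.06 and 1.08 for vehicle libraries and 0.936 for both others), filterByExpr at a minimum of 10 counts, glmQLFit and glmQLFTest without covariates, and Benjamini-Hochberg adjustment over all 17600 genes. The call needed an FDR below 0.05 and at least 2-fold. CPM are normalized, SE is the log2 fold change over the root of F, and intervals are at 95%. Gene symbols were matched for 56558 genes, and some genes are not reported here.

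The members and lists were chosen with earlier results of these data known. Named with all libraries were the main cyclins, kinases, checkpoint and anaphase genes and the largest changes of each role, and from each related list the 3 largest called changes in each direction. Promoters are from RefSeq (GRCh38.p14).

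Alternatives were other scalings (RLE, library totals, upper quartile), no filter, a minimum of 10 in each library, edgeR's likelihood-ratio test, DESeq2 1.42.0, a replicate block, a length and GC trend removed (mgcv 1.9.3), and leaving out each library. The test was checked on simulated counts.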

Additional observations from a re-analysis of the deposited data

How the results depend on the processing

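Of the 14 calls higher 9 were kept in all 14 alternatives, and of the 2 calls lower FOXM1 was kept. RLE scaling, 10 counts in every library, DESeq2 and the likelihood-ratio test gave 14 higher and 2 lower. With upper-quartile factors 18 and 2 were called. Library totals alone gave 10 and 4, and no filter 11 and 4, where BIRC5 and MKI67 were called lower. With the length and GC trend removed 19 and 1 were called, with or without the replicate block. For the other settings the share of all tested genes called is not given here, so their counts compare settings only. The median log2 fold change of the members was 0.13 with library totals, 0.17 without the filter, 0.50 with upper-quartile factors and 0.66 with the trend removed, also with the block. The first 3 of these shifted the median of all tested genes by −0.19, −0.15 and 0.17, and the members lay 0.35 to 0.65 above it in every setting. Leaving out each library gave 12 to 16 called higher, 1 to 3 called lower and medians of 0.31 to 0.41, with 1 residual degree of freedom and the lone library of a group assumed to vary like the other group.

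Same-numbered libraries of the 2 groups had deviations correlated at 0.040 and share only a number. With the replicate block 14 members were higher and 2 lower, and no call of a member or a named related gene was changed.

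Members whose direction turned were never called, but with the trend removed CDK1, ASPM, ANLN and ECT2 passed the FDR as higher (FDR 0.00712, 0.00059, 0.00959 and 0.0232). CDK1 was at 0.00511 with RLE, 0.00525 with DESeq2, 0.030 with 10 counts in every library, 0.16 with upper-quartile factors and 0.43 with the trend removed, with or without the block. ASPM was at 0.023 with 10 counts in every library, 0.15 with upper-quartile factors and 0.55 with the trend removed. ANLN and ECT2 were at 0.056 and 0.061 with upper-quartile factors and at 0.41 and 0.44 with the trend removed (ECT2 0.43 with the block), where NCAPG was at 0.23. With library totals and without the filter CCNA2 was at −0.11 and −0.078, ESPL1 at −0.057 and −0.024, SPC25 at −0.12 and −0.085, DLGAP5 at −0.16 and −0.12, and TOP2A at −0.10 and −0.070. With a library left out the ranges were −0.094 to 0.11 for CDK1, −0.073 to 0.22 for CCNA2, −0.11 to 0.33 for ESPL1, −0.17 to 0.30 for SPC25, −0.23 to 0.022 for ECT2, −0.078 to 0.042 for ASPM, −0.12 to 0.19 for DLGAP5 and −0.045 to 0.27 for TOP2A. The cause was not tested. With 2 libraries in each group, members near the 2-fold limit are the least certain in their call.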
